A study of Mus musculus with 119 samples.

Results

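The genes Il6, Lif, Osm and Clcf1, which encode cytokines of the IL-6 family, were followed through every genotype, inhibitor and LPS time of an RNA-seq study of mouse bone marrow-derived macrophages (BMDMs). They were taken by gene symbol and are 4 of the 18098 genes with values. All 4 passed the filter on low values, in part through the LPS-treated libraries in which they were high. The study asked which parts of the early LPS response depend on the kinase activity of TPL-2 (encoded by Map3k8), on the ERK1/2 pathway below it, and on the transcription factors ELK1 and ELK4. BMDMs of C57BL/6(NIMR) mice had been grown from femoral bone marrow for 7 days with L-cell conditioned medium as the source of M-CSF. They were then left without LPS or given 100 ng/ml LPS for 0.5, 1 or 2 h.

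The libraries formed 25 groups. WT BMDMs had 6 libraries at each of 0, 0.5 and 1 h and 4 libraries at 2 h. Map3k8[D270A] BMDMs, which make a TPL-2 protein without catalytic activity, had 6 libraries at each of the 4 times. Elk1-/-Elk4-/- BMDMs, which lack a pair of ternary complex factors, had 4 libraries at each time. Nfkb1[SS/AA] BMDMs, in which the TPL-2-binding protein p105 cannot be phosphorylated by the IκB kinase complex and TPL-2 is not released for signaling, had 6 libraries at each of 0, 0.5 and 1 h. WT BMDMs pretreated for 10 min with 0.1 µM PD0325901, an inhibitor of MKK1/2, had 6 libraries at each of the LPS times 0.5 h and 1 h, and 3 libraries at each of 10, 40 and 70 min of inhibitor without LPS beside 3 libraries with the solvent DMSO. WT BMDMs pretreated for 10 min with 2 µM RSKi47, an inhibitor of the RSK kinases that act below ERK1/2, had 4 libraries without LPS, 3 at 0.5 h and 4 at each of 1 and 2 h. Germline mutations are present in every cell of the culture, and an inhibitor acts on the whole culture. The labels assign the WT and Map3k8[D270A] libraries to 1 experiment and each of the other arms to an experiment of its own, and no library combined DMSO with LPS, so outside the comparison of Map3k8[D270A] with WT an arm and its experiment cannot be told apart. The authors call the replicate libraries biological replicates, and the labels do not say whether they came from separate mice or cultures. Each p-value measures the spread between libraries only.

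Cytokines of the IL-6 family share the signal-transducing receptor chain gp130, encoded by Il6st. IL-6 reaches gp130 through the IL-6 receptor chain and LIF through the LIF receptor. Oncostatin M (encoded by Osm) does so through its own receptor chain, and cardiotrophin-like cytokine factor 1 (encoded by Clcf1) through the CNTF receptor. Janus kinases bound to gp130 then activate STAT3, which induces among others its own inhibitor SOCS3. In macrophages IL-6 is a classical late product of TLR4 signaling, while oncostatin M is also made as an early response to many stimuli.

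In the RefSeq annotation of GRCm38.p6, Il6 lies at chr5:30013114-30019975, Osm at chr11:4236785-4241026, Lif at chr11:4257568-4272514 and Clcf1 at chr19:4214238-4223505, all on the plus strand. Osm and Lif are next to each other in the same orientation with 16.5 kb between them. Promoter sequences were at hand for 2 of the 4 genes, and the 250 bases before the start of each are shown because Lif and Il6 stood at opposite ends of the comparison of Map3k8[D270A] with WT at 1 h. Capitals mark matches, on either strand, to the letters of 5 motifs: AP-1 (TGANTCA), the core of the CRE motif (TGACGT, which reads ACGTCA on the other strand), C/EBP (TTGNNCAA), NF-κB (GGNNTTTCC) and ETS (CGGAAG), the last being the family of ELK1 and ELK4.
Il6 (chr5:30012864-30013113, plus strand): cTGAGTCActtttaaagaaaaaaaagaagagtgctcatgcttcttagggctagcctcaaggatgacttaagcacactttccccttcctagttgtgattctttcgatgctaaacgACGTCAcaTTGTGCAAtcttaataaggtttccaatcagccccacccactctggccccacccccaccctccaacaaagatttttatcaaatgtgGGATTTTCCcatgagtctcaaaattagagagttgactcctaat
Lif (chr11:4257318-4257567, plus strand): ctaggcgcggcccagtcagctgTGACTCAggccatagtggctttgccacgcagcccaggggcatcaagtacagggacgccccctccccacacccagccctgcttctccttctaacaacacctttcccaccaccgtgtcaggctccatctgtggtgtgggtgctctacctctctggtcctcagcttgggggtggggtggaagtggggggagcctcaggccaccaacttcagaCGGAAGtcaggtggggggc

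The Il6 window held the AP-1, CRE, C/EBP and NF-κB letters and none of the ETS letters, with the NF-κB match GGATTTTCC the closest to the start. The Lif window held the AP-1 letters (TGACTCA) and, next to the start, the ETS letters. Of 32851 mouse promoter windows of the same length, 6.75% held the AP-1 letters, 6.47% the CRE letters, 5.65% the C/EBP letters, 4.93% the NF-κB letters and 13.6% the ETS letters. No motif overlapped another in either window. A match describes the letters of the window and does not show that a factor binds there.

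All levels below are the deposited normalized values on a log2 scale. Differences between groups are given in units of that scale without conversion to fold changes, since the transformation may have drawn them together. The authors give only a typical sequencing yield, and the read depth of each library cannot be read from these values. Each difference is followed by its SE and by the limma p-value adjusted over all genes tested. In bulk RNA, fewer expressing cells and less RNA per cell cannot be told apart. In the libraries without LPS, Elk1 stood at a mean of 9.14 in WT and 6.36 in Elk1-/-Elk4-/- cells, and Elk4 at 7.72 and 5.71. The Map3k8[D270A] and Nfkb1[SS/AA] mutations change the protein, and the RNA level of neither gene tests them. The 7 macrophage markers averaged 14.2 to 14.6 in every library. The 8 neutrophil markers averaged 2.39 to 2.82 in WT libraries without LPS, 4.67 to 5.15 in those of Elk1-/-Elk4-/- cells and 2.89 to 3.34 after 10 min of PD0325901 and 3.03 to 3.47 after 10 min of DMSO, while Ly6g and Elane stayed near the floor of the scale.

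Each of the 4 cytokine genes had its own time course in WT BMDMs. Osm was already abundant without LPS and was induced at once, Lif peaked at 1 h, Clcf1 reached a plateau at 1 to 2 h, and Il6 was induced last and was still climbing at 2 h. Of the 12 tests over 3 times, 10 were significantly higher than without LPS. Over all genes tested, 7.82% were higher at 0.5 h, 23.8% at 1 h and 34.7% at 2 h.

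**Figure D1:**
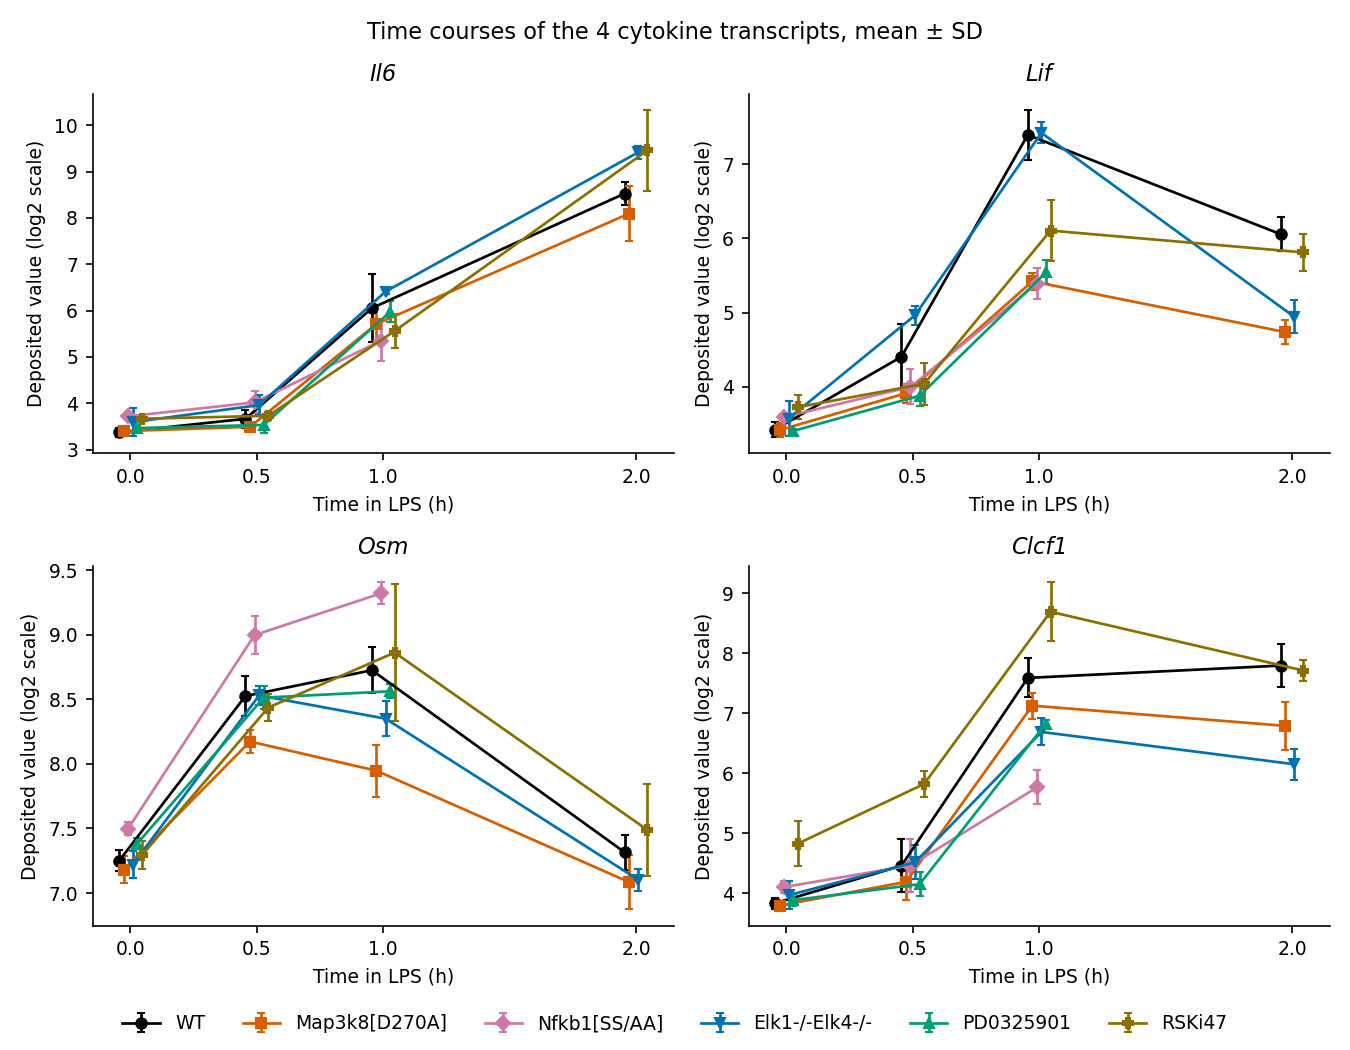
Deposited log2 level of Il6, Lif, Osm and Clcf1 (y-axis, a scale of its own for each gene) against hours of LPS (x-axis), by genotype and inhibitor, with group means as points joined by lines and SD as bars, arms being shifted slightly sideways. In WT cells Lif averaged 7.39 at 1 h and 6.06 at 2 h, while Il6 averaged 6.05 and 8.53.

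Osm, whose product is released by activated macrophages and acts on stromal and epithelial cells, ranged over the 6 WT libraries from 7.19 to 7.40 without LPS (median 7.22), from 8.30 to 8.67 at 0.5 h (median 8.53) and from 8.49 to 8.95 at 1 h (median 8.70). At 2 h its 4 libraries were at 7.18 to 7.50, overlapping the resting libraries. Osm was induced by 1.28 (SE 0.08, adjusted p = 2.95e-19) at 0.5 h and 1.48 (SE 0.08, adjusted p = 6.89e-23) at 1 h, and at 2 h the difference from resting cells was 0.07 (SE 0.09, adjusted p = 0.522). Lif, a cytokine named for its effect on leukemia cells and used to keep embryonic stem cells undifferentiated, lay between 3.31 and 3.61 in resting WT libraries (median 3.40), between 4.01 and 5.12 at 0.5 h (median 4.30) and between 7.05 and 7.92 at 1 h (median 7.35). The 4 libraries at 2 h held 6.24, 6.05, 5.73 and 6.20, all below the lowest library of 1 h. Lif rose by 0.98 (SE 0.13, adjusted p = 2.34e-08), 3.97 (SE 0.13, adjusted p = 1.65e-33) and 2.63 (SE 0.14, adjusted p = 1.15e-23) at the 3 times, and fell by 1.34 from 1 to 2 h (adjusted p = 3.69e-12). From 1 to 2 h, 31.7% of all genes tested fell.

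Clcf1, whose product supports B cells and neurons, lay between 3.70 and 3.94 in resting WT libraries (median 3.84), between 3.92 and 5.13 at 0.5 h (median 4.44) and between 7.16 and 7.99 at 1 h (median 7.59). Its 4 libraries at 2 h were at 7.84, 7.94, 8.11 and 7.28, overlapping those of 1 h. It rose by 0.62 (SE 0.16, adjusted p = 0.00549), 3.75 (SE 0.16, adjusted p = 2.21e-27) and 3.96 (SE 0.18, adjusted p = 1.32e-26), and the first of these was not significant without WT replicate 9. Between 1 and 2 h Clcf1 differed by 0.21 (adjusted p = 0.327). Il6, the pyrogenic and acute phase-inducing cytokine of the family, lay between 3.20 and 3.47 without LPS (median 3.39) and between 3.38 and 3.87 at 0.5 h (median 3.69), so that the groups overlapped. It then stood between 5.35 and 6.79 at 1 h, and at 8.89, 8.44, 8.32 and 8.47 at 2 h. The difference from resting cells was 0.29 (SE 0.20, adjusted p = 0.406) at 0.5 h, and Il6 rose by 2.68 (SE 0.20, adjusted p = 1.65e-17) at 1 h and by 5.16 (SE 0.22, adjusted p = 6.68e-28) at 2 h.

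The WT libraries did not all behave alike. WT replicates 4 to 6 and 7 to 9 stood apart at 0.5 and 1 h. The labels do not mark such a split, and since it was noted from the values it is described here without a test. At 1 h, Il6 was at 6.79, 6.70 and 6.66 in replicates 4 to 6 and at 5.35, 5.47 and 5.35 in replicates 7 to 9, a difference of -1.33. Lif was higher in replicates 7 to 9 at 0.5 h by 0.73 and lower at 1 h by -0.56. Clcf1 followed Lif, at 0.69 and -0.48. Osm differed between these WT libraries by -0.11 at each of the 2 times. Map3k8[D270A] replicates 1 to 3 and 4 to 6 were split in a like way for Il6, by -0.63 at 1 h and -1.07 at 2 h. Values within pairs of replicate sets are therefore given beside the pooled ones. WT replicates 4 to 6 were set with Map3k8[D270A] replicates 1 to 3, and 7 to 9 with 4 to 6. The labels do not give this matching.

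**Figure D2:**
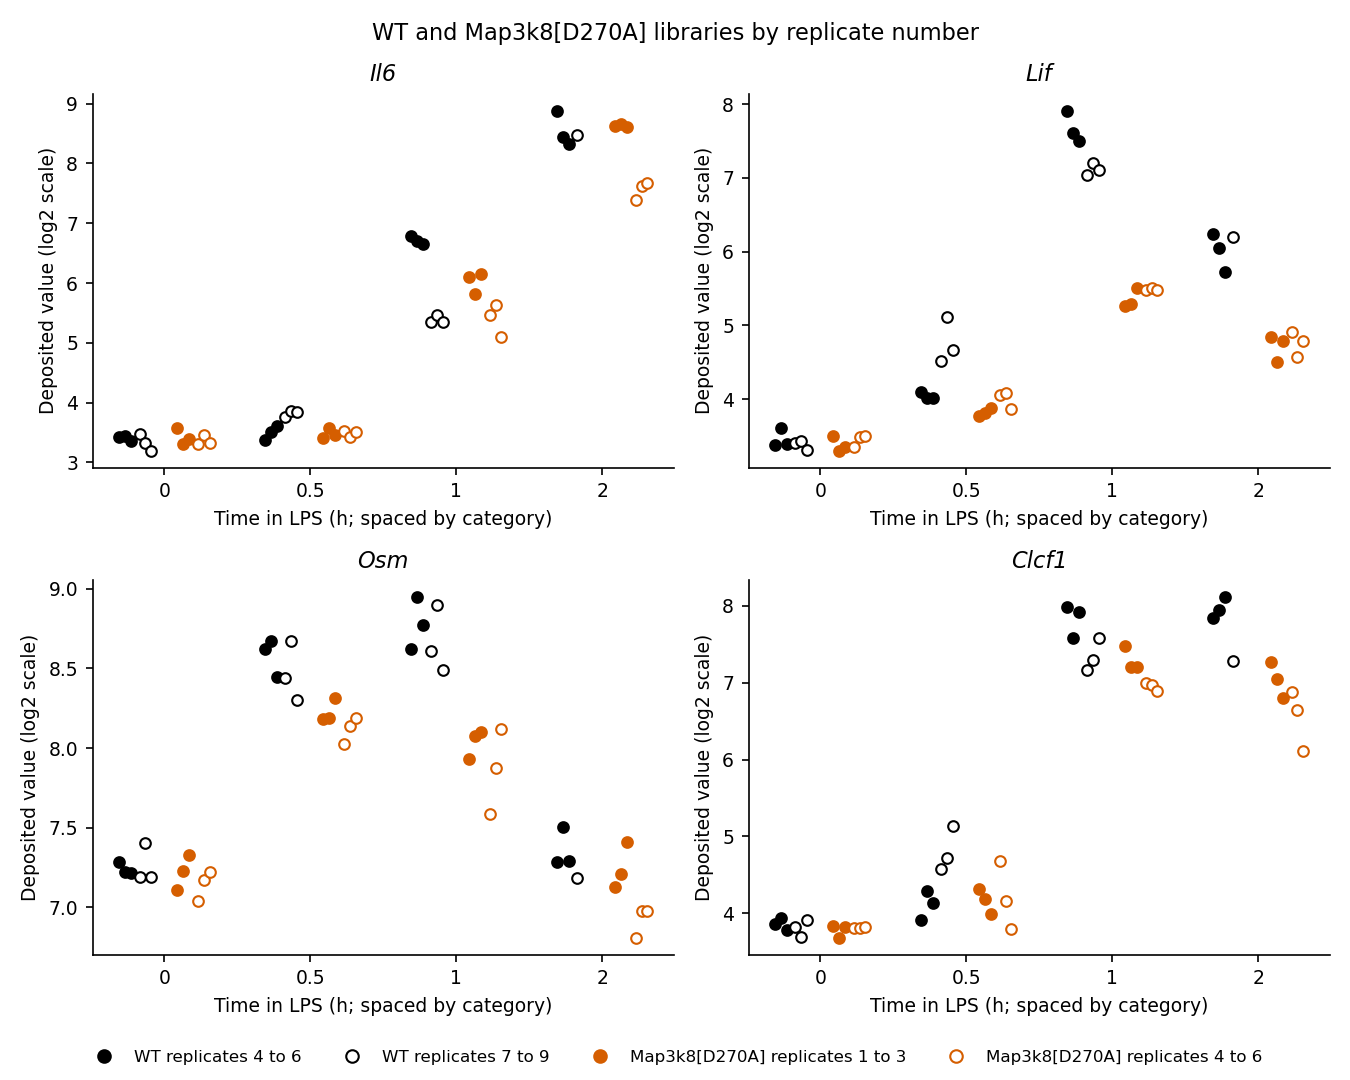
Deposited log2 level (y-axis) of each gene in every WT (black) and Map3k8[D270A] (orange) library at each LPS time (x-axis, spaced by category), filled for WT replicates 4 to 6 and Map3k8[D270A] replicates 1 to 3 and open for WT replicates 7 to 9 and Map3k8[D270A] replicates 4 to 6. At 1 h the filled WT points of Il6 lie at 6.66 to 6.79 and the open ones at 5.35 to 5.47, whereas every Map3k8[D270A] point of Lif lies below every WT point.

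In cells without TPL-2 catalytic activity Lif was reduced most, Osm at its peak and Clcf1 at 2 h, and Il6 showed no significant pooled difference. Of 16 tests of Map3k8[D270A] against WT BMDMs, 7 were lower. In the same comparisons 0.833%, 0.892%, 4.64% and 13.1% of all genes tested were lower at 0, 0.5, 1 and 2 h. None of the 7 was in cells without LPS, in which the members differed by -0.07 to 0.03 (unadjusted p of 0.407 or more, limma). The mean of the neutrophil markers lay at 2.42 to 3.12 in WT and 2.42 to 2.89 in Map3k8[D270A] libraries at 2 h. At that time the mean of 3 dendritic cell markers lay at 2.93 to 3.21 in the mutant and 3.47 to 3.61 in WT libraries, and that of 3 glial markers at 5.58 to 5.76 and 5.79 to 5.86. Their part was not tested.

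Lif at 1 h lay between 5.26 and 5.51 in the 6 Map3k8[D270A] libraries (median 5.48), all below the lowest WT library at 7.05. At 2 h the mutant libraries lay between 4.51 and 4.91 (median 4.79), again below every WT library. Lif was lower by -1.97 at 1 h (SE 0.13, adjusted p = 7.44e-18) and by -1.32 at 2 h (SE 0.14, adjusted p = 8.12e-11). The LPS response itself, tested as an interaction, was smaller by -1.97 at 1 h (adjusted p = 8.2e-12) and -1.31 at 2 h (adjusted p = 5.77e-07). Over all genes, 1.3% and 8.6% of responses were lower in this sense. Lif was still induced in the mutant, by 2.01 at 1 h (SE 0.13, adjusted p = 3.89e-20), where 21.8% of all genes rose. The reduction at 1 h was -2.32 in the first replicate set and -1.63 in the second, without overlap in either. The earlier difference at 0.5 h, -0.49 (SE 0.13, adjusted p = 0.0264), was less firm: it was -0.22 in the first replicate set and -0.76 in the second, and it was not significant without any 1 of WT replicates 7, 8 or 9 or of Map3k8[D270A] replicates 1, 2, 3 or 6, with values between -0.57 and -0.35.

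Osm at 1 h lay between 7.59 and 8.12 in Map3k8[D270A] libraries (median 8.0), below every WT library of that time, the lowest of which was at 8.49. It was reduced by -0.78 (SE 0.08, adjusted p = 9.79e-11), with -0.75 and -0.81 in the replicate sets, and its response by -0.71 (adjusted p = 2.08e-05). At 0.5 h the difference was -0.35 (SE 0.08, adjusted p = 0.00856) and the same in each replicate set, with overlapping libraries. In the mutant Osm peaked at 0.5 h, with a fall of -0.23 from 0.5 to 1 h (adjusted p = 0.0223), where WT cells gained 0.20 (adjusted p = 0.0427). Over all genes 17.4% fell in this step in the mutant and 20.3% rose in WT cells. Neither of these steps of Osm held up well: the first was not significant without Map3k8[D270A] replicate 1, 4 or 5, and the second without any 1 of WT replicates 5 to 9. At 2 h Osm differed by -0.23 (SE 0.09, adjusted p = 0.0485), with -0.11 in the first replicate set and -0.27 in the second, where WT had only replicate 7. That call was lost in 7 of 10 refits with 1 library left out, those without WT replicate 4, 5 or 6 or without Map3k8[D270A] replicate 1, 4, 5 or 6, with values from -0.30 to -0.17.

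Clcf1 at 2 h was at 7.27, 7.05, 6.79, 6.88, 6.64 and 6.11 in the Map3k8[D270A] libraries, each below the lowest WT library at 7.28. It was lower by -1.0 (SE 0.18, adjusted p = 1.8e-05), with -0.93 in the first replicate set and -0.74 against the single WT library, replicate 7, of the second, and its response was smaller by -0.96 (adjusted p = 0.00336). At 1 h its libraries overlapped those of WT cells, with a difference of -0.46 (SE 0.16, adjusted p = 0.0602). Il6 at 1 h was at 6.10, 5.82, 6.16, 5.46, 5.63 and 5.09 in the mutant, so that 5 of the 6 libraries lay within the WT range of 5.35 to 6.79 and 1 below it. Pooled, it differed by -0.34 (SE 0.20, adjusted p = 0.32) at 1 h and -0.43 (SE 0.22, adjusted p = 0.148) at 2 h. The replicate sets did not give the same picture for Il6. At 1 h the difference was -0.69 in the first set and 0.00 in the second. At 2 h it was 0.08 in the first and -0.91 in the second, where it rests on the single WT library, replicate 7.

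**Figure D3:**
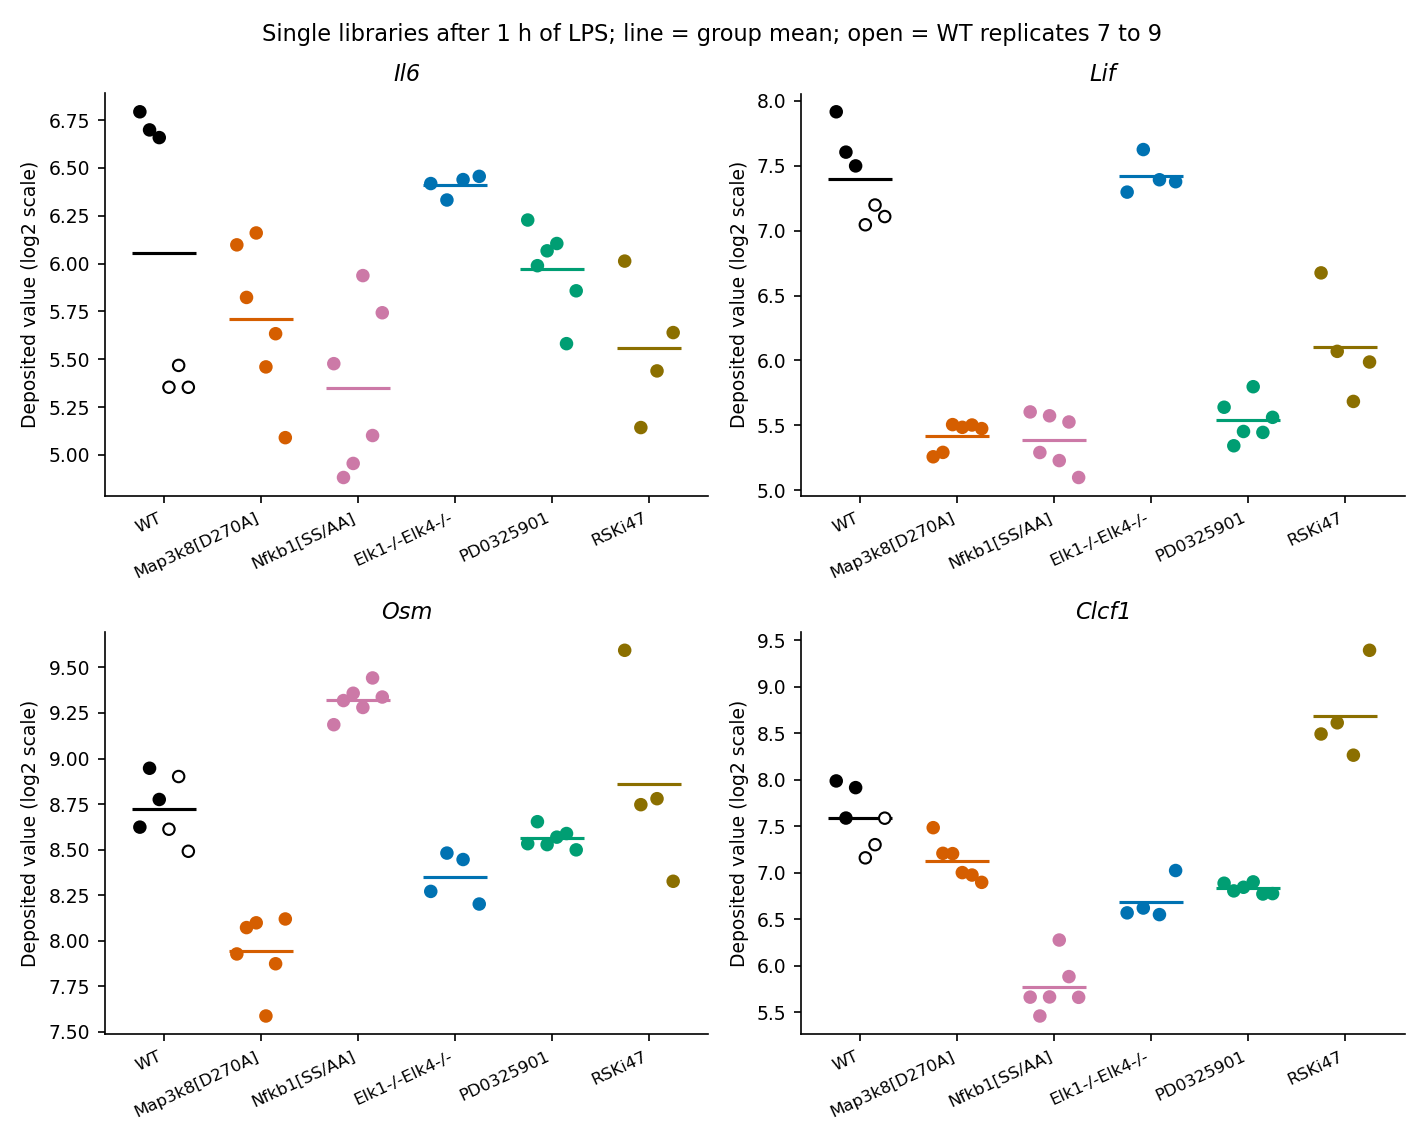
Deposited log2 level (y-axis) of the 4 genes in every library at 1 h of LPS, by arm (x-axis), with each library as a point and the group mean as a line, WT replicates 7 to 9 being open. Lif lay at 7.05 to 7.92 in WT and 7.30 to 7.62 in Elk1-/-Elk4-/- libraries and at 5.10 to 6.67 in the other 4 arms.

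In Elk1-/-Elk4-/- BMDMs the family split by gene: Clcf1 was lower from 1 h, Lif was close to WT at 1 h but lower at 2 h, and Il6 was higher at 2 h. Of 16 tests against WT, 4 were lower and 2 higher. These cells differed from WT in about as many genes without LPS as with it, with 24.6%, 22%, 26.2% and 23.1% of all genes lower and 27.2%, 22.4%, 27.2% and 27.7% higher at 0, 0.5, 1 and 2 h, so the members' counts were not above the background. The mean of the neutrophil markers lay at 5.12 to 5.35 in Elk1-/-Elk4-/- and 2.42 to 3.12 in WT libraries at 2 h, with median S100a9 at 9.47 and 4.61, and Elane at 0.14 and -0.13. B cell markers (2.95 to 3.47 against 2.54 to 2.75), mast cell markers (2.71 to 3.24 against 2.00 to 2.68) and endothelial markers (5.37 to 5.78 against 5.03 to 5.31) also averaged higher than in any WT library without LPS. Of the 4 mast cell markers 2 had values, and Kit carried the difference (mean 6.89 against 5.87), with Cpa3 below 0 in both. At 2 h dendritic cell markers lay at 2.95 to 3.40 against 3.47 to 3.61 and glial markers at 5.53 to 5.56 against 5.79 to 5.86, below every WT library. The part of these transcripts in the results of this arm was not tested.

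Clcf1 at 2 h was at 5.94, 6.42, 5.92 and 6.33 in the 4 Elk1-/-Elk4-/- libraries, all below the WT libraries. It was lower by -0.90 (SE 0.18, adjusted p = 4.26e-05) at 1 h and -1.64 (SE 0.20, adjusted p = 1.31e-09) at 2 h, without overlap at either time. Its response was smaller by -1.03 at 1 h (adjusted p = 0.0185) and -1.78 at 2 h (adjusted p = 2.19e-06), against 0.942% and 8.76% of genes with a smaller response. The interaction at 1 h was not significant without WT replicate 4 or 6 or without Elk1-/-Elk4-/- replicate 1, 2 or 3, with values from -1.21 to -0.91. Lif at 1 h lay at 7.30 to 7.62 and was within 0.03 of WT (SE 0.14, adjusted p = 0.883, 95% interval -0.26 to 0.31). At 2 h it was at 4.67, 5.21, 4.97 and 4.91, below every WT library, a difference of -1.11 (SE 0.15, adjusted p = 3.57e-08). Between 1 and 2 h Lif dropped by 2.48 in these cells, and this drop was greater than that of WT cells by -1.14 (adjusted p = 8.72e-05), as in 6.5% of all genes. At 0.5 h Lif was higher by 0.56 (SE 0.14, adjusted p = 0.00107) against all WT libraries, but by 0.20 and without significance against WT replicates 7 to 9 alone.

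Osm was lower in Elk1-/-Elk4-/- cells at 1 h by -0.37 (SE 0.09, adjusted p = 0.000457), with libraries at 8.27, 8.48, 8.45 and 8.20 that all lay below the WT libraries. Its interaction with LPS at 1 h was -0.35 (adjusted p = 0.273, or 0.00812 with the replicate number as a block within each arm). Il6 at 2 h was at 9.53, 9.51, 9.24 and 9.39, above each WT library, and was higher by 0.89 (SE 0.24, adjusted p = 0.0018). Its interaction at 2 h was 0.67 (adjusted p = 0.163), and the level without LPS differed by 0.22 (SE 0.22, adjusted p = 0.418).

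Both mutants were also compared with each other, at the same times. Lif was higher in Elk1-/-Elk4-/- than in Map3k8[D270A] BMDMs by 1.05 at 0.5 h (adjusted p = 2.5e-08) and 2.00 at 1 h (adjusted p = 6.37e-17), and differed by 0.21 at 2 h (adjusted p = 0.228, 95% interval -0.08 to 0.49). Osm was higher at 0.5 h by 0.36 (adjusted p = 0.000961) and at 1 h by 0.40 (adjusted p = 0.000192). Il6 was higher by 0.70 at 1 h (adjusted p = 0.00687) and 1.32 at 2 h (adjusted p = 1.89e-06). Clcf1 was the exception, lower in Elk1-/-Elk4-/- cells by -0.44 at 1 h (adjusted p = 0.0392) and -0.64 at 2 h (adjusted p = 0.00291). The Clcf1 difference at 1 h was not significant without Map3k8[D270A] or Elk1-/-Elk4-/- replicate 1, 2 or 3. At 0.5 h 25.8% of all genes were higher in Elk1-/-Elk4-/- than in Map3k8[D270A] cells. At 1 h 26.1% of all genes were higher and 25.5% lower in Elk1-/-Elk4-/- than in Map3k8[D270A] cells, and at 2 h 26.4% and 23.2%.

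In Nfkb1[SS/AA] BMDMs Lif and Clcf1 were lower at 1 h of LPS and Osm was higher. Il6 was also called lower at 1 h, a call that depended on the WT libraries used. Of 12 tests against WT, 4 were lower and 3 higher, and the 3 higher ones were Osm at each time. Over all genes 15.1%, 15.6% and 21.9% were lower and 16.9%, 16.7% and 20.5% higher at 0, 0.5 and 1 h. The mean of the glial markers at 1 h lay at 5.35 to 5.61 against 5.64 to 5.81 in WT libraries, and its part was not tested. Lif at 1 h lay between 5.10 and 5.60 (median 5.41), below every WT library, and was reduced by -2.01 (SE 0.12, adjusted p = 3.12e-27). Clcf1 lay between 5.46 and 6.27 (median 5.66), also apart from WT, and was reduced by -1.82 (SE 0.16, adjusted p = 5.99e-18). Their responses to LPS were smaller by -2.18 (adjusted p = 3.03e-19) and -2.09 (adjusted p = 1.07e-12), as were 4.3% of all responses. Lif at 0.5 h was lower by -0.41 (SE 0.12, adjusted p = 0.00593), a call that was lost without WT replicate 8 (-0.26) and against WT replicates 4 to 6 alone (-0.04).

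Il6 in Nfkb1[SS/AA] BMDMs lay between 4.88 and 5.94 at 1 h (median 5.29). It was lower by -0.70 (SE 0.19, adjusted p = 0.00161), although the difference was -0.04 against WT replicates 7 to 9 alone and the adjusted p was 0.111 when both groups were fitted alone. Its response was smaller by -1.05 (adjusted p = 0.00577), of which 0.35 lay in a higher level without LPS (adjusted p = 0.163). Against WT replicates 7 to 9 alone the response differed by -0.43. With all WT libraries its adjusted p was 0.0912 when the groups of this comparison were fitted alone. Without LPS, Osm alone of the members passed the test in this arm, in a comparison in which 16.9% of all genes were called higher. Osm at 1 h lay between 9.19 and 9.44 (median 9.33), above all WT libraries at 1 h, and was higher by 0.60 (SE 0.09, adjusted p = 1.29e-07). At 0.5 h Osm was higher by 0.47 (SE 0.09, adjusted p = 3.51e-05), and in cells without LPS by 0.25 (SE 0.09, adjusted p = 0.033). The difference without LPS was not significant when WT replicate 5, 6, 7 or 9 or Nfkb1[SS/AA] replicate 4, 5 or 6 was left out. The interaction of Osm with LPS at 1 h was 0.35 (adjusted p = 0.121), and it passed the test when the replicate number was a block within each arm (adjusted p = 0.0155).

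Set directly against Map3k8[D270A] cells at 1 h, the level of Lif in Nfkb1[SS/AA] cells differed by -0.03, with a 95% interval of -0.27 to 0.21. Osm and Clcf1 separated these mutants. Osm was higher in Nfkb1[SS/AA] cells by 1.37 (SE 0.09, adjusted p = 1.55e-23) and Clcf1 was lower by -1.36 (SE 0.16, adjusted p = 4.2e-12), both without overlap. Il6 differed by -0.36 (adjusted p = 0.112, 95% interval -0.74 to 0.02). Over all genes 22.7% were higher and 24.6% lower in this comparison.

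In BMDMs pretreated with PD0325901, Lif was lower after 0.5 h and after 1 h with LPS, and Clcf1 after 1 h. Of 8 tests against WT with LPS alone, 3 were lower, while 15% and 19.3% of all genes were lower at 0.5 and 1 h. Lif at 1 h lay between 5.34 and 5.80 (median 5.51) and was lower by -1.85 (SE 0.12, adjusted p = 1.92e-24), with no library reaching the WT range. At 0.5 h it was lower by -0.52 (SE 0.12, adjusted p = 0.000423), but by -0.16 and without significance against WT replicates 4 to 6 alone. Clcf1 at 1 h lay between 6.77 and 6.90 (median 6.82), below all WT libraries, and was lower by -0.76 (SE 0.16, adjusted p = 5.99e-05). The Lif response was smaller by -1.83 (adjusted p = 1.32e-12) and the Clcf1 response by -0.81 (adjusted p = 0.0441), against 2.63% of all genes. That of Clcf1 was not significant in 9 of 12 refits with 1 library left out, those without WT replicate 4, 5, 6 or 8 or without PD0325901 replicate 1, 2, 3, 5 or 6, with values from -0.89 to -0.73. The mean of the neutrophil markers was at 3.43 to 3.80 in PD0325901 and 2.40 to 3.13 in WT libraries at 1 h. Endothelial markers lay at 5.39 to 5.68 against 4.91 to 5.34 and glial markers at 5.38 to 5.48 against 5.64 to 5.81. The part of these transcripts was not tested.

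Osm with PD0325901 lay between 8.50 and 8.65 at 1 h and differed from WT by -0.16 (SE 0.09, adjusted p = 0.172, 95% interval -0.35 to 0.02), and by -0.22 with the replicate number as a block (adjusted p = 0.00115). Same-numbered libraries of PD0325901 and WT correlated at -0.06 to 0.18 at 1 h, so the numbers were not found to pair these arms. Osm with the inhibitor was higher than in Map3k8[D270A] cells by 0.34 (SE 0.09, adjusted p = 0.00329) at 0.5 h and 0.61 (SE 0.09, adjusted p = 1.05e-07) at 1 h, without overlap at either time. At 1 h the other members did not differ significantly between the inhibitor and the mutant. The difference was 0.12 for Lif (95% interval -0.12 to 0.36), -0.30 for Clcf1 (-0.61 to 0.01) and 0.26 for Il6 (-0.12 to 0.64). In that comparison 18.5% of all genes were higher and 22.2% lower, and at 0.5 h 15.9% were higher. Il6 with PD0325901 lay between 5.58 and 6.23 at 1 h, in the gap between the WT replicate sets. Its difference of -0.08 from all WT libraries (SE 0.19, adjusted p = 0.766) was -0.75 against WT replicates 4 to 6 and 0.58 against replicates 7 to 9. Without LPS, 10 min of PD0325901 shifted the members by -0.03 to 0.07 from DMSO (unadjusted p of 0.759 or more, limma). The members of the DMSO libraries, which belong to the PD0325901 experiment, differed from WT cells without LPS by -0.06 to 0.16 and passed no test, while 11.1% of all genes were lower and 12.5% higher. With inhibitor alone all 4 members stood higher at 40 and at 70 min than at 10 min, by 0.07 to 0.28. None passed the test, the lowest p being that of Osm at 70 min (0.28, adjusted p = 0.256, unadjusted p = 0.0395), and 1.32% and 2.62% of all genes were called higher at 40 and 70 min.

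In RSKi47-treated BMDMs Clcf1 was higher than in WT before LPS, at 0.5 h and at 1 h, and Lif was lower at 1 h. Of 16 tests against WT, 4 were higher and 3 lower, in an arm where 26.3%, 24.5%, 26.3% and 24.6% of all genes were lower and 26.8%, 23.7%, 26.5% and 27.5% higher at 0, 0.5, 1 and 2 h. Clcf1 was at 4.57, 4.98, 4.47 and 5.29 in the 4 RSKi47 libraries without LPS, all above the WT libraries, and at 5.60, 6.04 and 5.83 at 0.5 h. At 1 h it was at 8.49, 8.61, 8.26 and 9.39, above the highest WT library at 7.99. The differences were 0.99 (SE 0.18, adjusted p = 1.17e-06) without LPS, 1.36 (SE 0.19, adjusted p = 4.88e-09) at 0.5 h and 1.10 (SE 0.18, adjusted p = 9.73e-08) at 1 h. By 2 h Clcf1 lay at 7.57 to 7.96, within the WT range, with a difference of -0.08 (SE 0.19, adjusted p = 0.741). The response over 2 h was smaller by -1.07 (adjusted p = 0.00103), against 10.4% of all responses beside the higher resting level. The mean of 6 stromal markers lay at 2.08 to 3.37 in RSKi47 and 1.34 to 1.57 in WT libraries without LPS, a rise carried by Col1a1 (mean 5.55 against 2.48, with 1 RSKi47 library at 9.03) and Col1a2 (5.45 against 3.14), while Dcn and Pdgfra lay below 0 in both. Without LPS neutrophil markers lay at 3.04 to 3.26 against 2.39 to 2.82, endothelial markers at 5.57 to 5.80 against 5.03 to 5.31 and B cell markers at 2.38 to 2.43 against 2.54 to 2.75. The part of these transcripts was not tested.

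Lif with RSKi47 was at 6.67, 6.07, 5.68 and 5.99 at 1 h, below the WT libraries and lower by -1.29 (SE 0.14, adjusted p = 6.64e-14). At 2 h it lay at 5.48 to 6.08 and differed by -0.25 (SE 0.15, adjusted p = 0.158). At 0.5 h it was lower by -0.36 (SE 0.15, adjusted p = 0.0349), which was lost without WT replicate 7, 8 or 9 or RSKi47 replicate 3 (-0.46 to -0.20 over all refits). Il6 with RSKi47 was at 6.01, 5.14, 5.44 and 5.64 at 1 h, overlapping WT, and lower by -0.50 (SE 0.21, adjusted p = 0.0436), a call lost without WT replicate 4, 5 or 6 or RSKi47 replicate 2 or 3 and turned to 0.17 against WT replicates 7 to 9 alone. At 2 h Il6 was at 9.38, 10.10, 10.11 and 8.26, so that 3 libraries lay above and 1 below every WT library, and it was higher by 0.93 (SE 0.23, adjusted p = 0.000453, or 0.0767 with both groups fitted alone). Its step from 1 to 2 h was larger than that of WT cells by 1.43 (adjusted p = 0.000471, or 0.139 with these groups fitted alone), as in 7.7% of all genes. Osm spread over 9.59, 8.75, 8.78 and 8.33 at 1 h and differed from WT by 0.14 (SE 0.11, adjusted p = 0.278), with -0.11 without RSKi47 replicate 1.

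The inhibitors were compared with each other after 0.5 h and 1 h with LPS, in 8 tests. Clcf1 was higher with RSKi47 than with PD0325901 by 1.67 (SE 0.19, adjusted p = 4.59e-12) at 0.5 h and 1.86 (SE 0.18, adjusted p = 4.35e-16) at 1 h, without overlap. Lif at 1 h was higher by 0.56 (SE 0.14, adjusted p = 0.000241). Osm at 1 h was higher by 0.30 (SE 0.11, adjusted p = 0.0123), but by 0.06 and without significance when RSKi47 replicate 1 was left out. Il6 at 1 h differed by -0.41 (adjusted p = 0.0949, 95% interval -0.84 to 0.01). Over all genes 25.1% were higher and 24.4% lower with RSKi47 at 0.5 h, and 28.6% and 25.3% at 1 h.

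**Figure D4:**
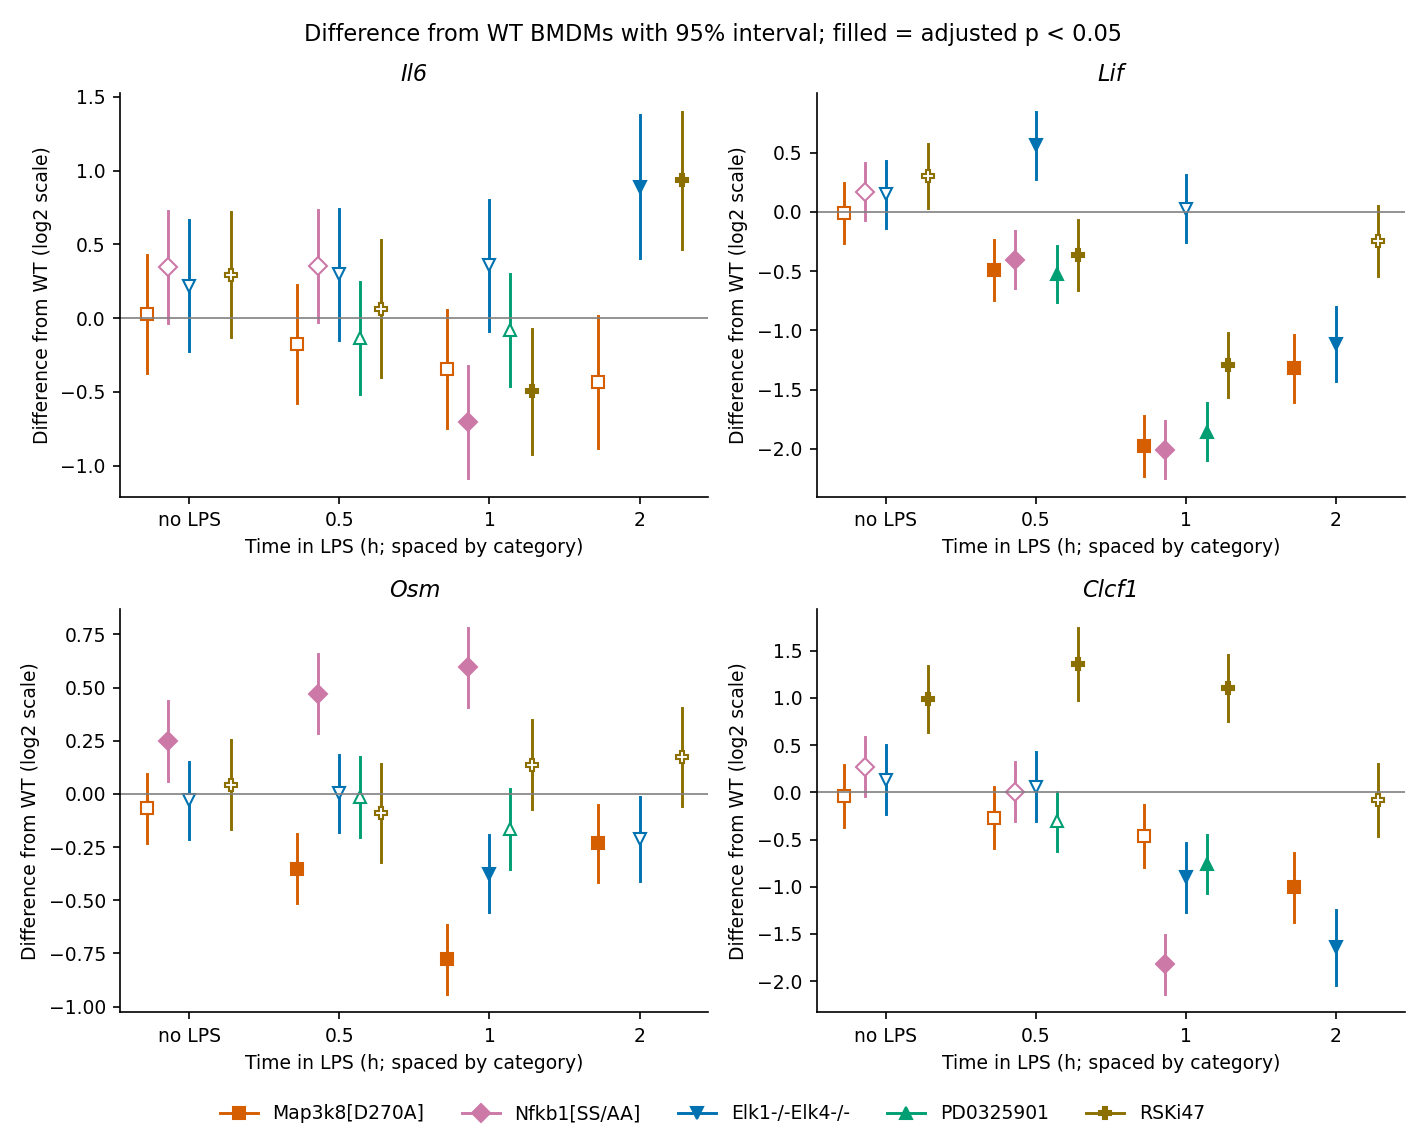
Difference from WT (y-axis, log2 units) of each gene at each LPS time (x-axis), by arm, with 95% intervals as bars and filled symbols where the adjusted p was below 0.05. At 1 h Lif lay at -1.97, -2.01, -1.85 and -1.29 with Map3k8[D270A], Nfkb1[SS/AA], PD0325901 and RSKi47 and at 0.03 in Elk1-/-Elk4-/- cells, while Clcf1 lay at 1.10 with RSKi47.

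All arms were set against the same WT libraries, so the differences of one time share the WT error and their likeness between arms is not independent evidence. Side by side at 1 h, Lif differed from WT by -1.97 in Map3k8[D270A], -2.01 in Nfkb1[SS/AA], -1.85 in PD0325901, -1.29 in RSKi47 and 0.03 in Elk1-/-Elk4-/- cells. For Osm the same series was -0.78, 0.60, -0.16, 0.14 and -0.37. For Clcf1 it was -0.46, -1.82, -0.76, 1.10 and -0.90, so that the lowest Clcf1 was found in Nfkb1[SS/AA] and the highest in RSKi47-treated cells.

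Across the 25 groups the mean level of Il6 was highest with RSKi47 at 2 h (9.46), that of Lif in Elk1-/-Elk4-/- cells at 1 h (7.42), that of Osm in Nfkb1[SS/AA] cells at 1 h (9.32) and that of Clcf1 with RSKi47 at 1 h (8.69). Lif in Elk1-/-Elk4-/- and WT cells at 1 h were neighbours in that order and did not differ beyond their spread. The Il6 libraries with RSKi47 at 2 h lay on both sides of those of Elk1-/-Elk4-/- cells at 2 h, so these groups are not ranked. Over the same group means, Lif and Clcf1 had a Pearson r of 0.86, Il6 and Clcf1 0.79, Il6 and Lif 0.67, Lif and Osm 0.42, Osm and Clcf1 0.24 and Il6 and Osm -0.13. These values describe groups that share an LPS time course and are not a test.

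Among 818 genes whose group means spanned at least 2 units, those most like Il6 over the 25 groups were Kpna3 (r = 0.988), Peli1 (0.985), and Il12b, Tpbg and Il27 (0.984 each). Il12b and Il27 encode cytokine subunits, and Peli1 a ubiquitin ligase of TLR signaling. Those most like Lif were Il23a (0.968), a subunit of IL-23, then Cdc42ep4 (0.947), Nlrp3 (0.935), Il1a (0.935) and Arl5b (0.934). Osm went with Gdf15 (0.965), Egr2 (0.895), Phlda1 (0.878), Dusp8 (0.872) and Dusp4 (0.852), of which Dusp4 and Dusp8 encode MAP kinase phosphatases and Egr2 an immediate early transcription factor. Clcf1 went with Olr1 (0.960), Cpeb4 (0.945), D8Ertd82e (0.944), Cdk5r1 (0.943) and Bcl2l11 (0.938).

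The nearest genes with values on either side of the members were looked at in the same way. Osm and Lif are the nearest genes of each other on one side. Tbc1d10a, 21.3 kb below Osm, rose in WT cells by 0.31 at 2 h and was lower in Map3k8[D270A] cells by -0.49 at 2 h (adjusted p = 6.25e-11). Dnajb6, 226.6 kb below Il6, rose by 0.57 at 2 h in WT cells, while Tyms, 18.6 kb above Il6, differed by -0.17 (adjusted p = 0.322). Rad9a, 12.6 kb below Clcf1, fell by 0.45 at 1 h, and Pold4, 8.4 kb above it, fell by 0.29 at 2 h (adjusted p = 0.000329). Of Dnajb6, Tyms, Rad9a and Pold4, none passed the test between Map3k8[D270A] and WT cells at any time. Hormad2, 73.3 kb above Lif, was too low to be tested.

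The other genes of the pathway gave a background to these ligands. Of 8 other ligands of the family, 3 were high enough to be tested. Of these 2 rose in WT cells at 2 h, against 34.7% of all genes. Il27 rose from a mean of 5.09 to 11.03, and Ebi3, which encodes the partner of the Il27 product, rose from 9.83 to 11.57. Cntf did not pass the test, and Il11, Ctf1 and Il31 lay below 0 in resting cells. In Map3k8[D270A] cells the 3 tested ligands had a median difference of -0.02 at 2 h, against 0.01 for all genes. Ebi3 was higher in Elk1-/-Elk4-/- cells at 2 h by 0.48 and lower in Nfkb1[SS/AA] cells at 1 h by -0.54 and with RSKi47 at 2 h by -0.53.

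Of 9 receptor chains, 5 were tested and 3 fell in WT cells at 2 h, against 36.8% of all genes, namely Il6ra by -0.67, Il6st by -0.40 and Lifr by -0.40 (median of the 5 -0.40, of all genes -0.02). The chain specific for oncostatin M, Osmr, lay between -0.61 and 0.27 in WT libraries without LPS and at 2 h, at the floor of the scale. At 1 h in Nfkb1[SS/AA] cells, 2 of the 5 were lower and 1 higher, with Il27ra at -0.64, Lifr at -0.63 and Il11ra1 at 0.43, against 21.9% and 20.5% of all genes. The 8 signaling genes all rose in WT cells at 2 h, against 34.7% of all genes, led by Jak2 (3.21), Stat3 (0.78), Jak1 (0.76) and Ptpn11 (0.53). In Map3k8[D270A] cells at 2 h, 2 of them were lower, against 13.1% of all genes, with Jak2 at -0.70 and Jak1 at -0.27.

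A further list held 10 genes that STAT3 is known to induce, most of which LPS can also induce by other routes. All 10 rose in WT cells at 1 and at 2 h, against 23.8% and 34.7% of all genes. At 2 h Cish stood at 6.08, Socs3 at 5.51, Socs1 at 4.63 and Bcl3 at 3.35 above resting cells. In Map3k8[D270A] cells 6 of the 10 were lower at 1 h and 9 at 2 h, against 4.64% and 13.1% of all genes, with a median of -0.72 at 2 h against 0.01 for all genes. The largest differences were those of Cish (-1.29), Timp1 (-1.12), Il4ra (-1.10) and Il1rn (-0.91). At 2 h 7 were lower in Elk1-/-Elk4-/- cells (median -0.55), where 23.1% of all genes were lower, with Cish at -1.31 and Timp1 at -1.30. With RSKi47 at 2 h 7 were lower and 2 higher (median -0.81), against 24.6% and 27.5% of all genes, with Timp1 at -1.87 and Il4ra at -1.68. At 1 h 6 were lower in Nfkb1[SS/AA] cells, against 21.9% of all genes, with Socs3 at -1.04 and Junb at -0.90. With PD0325901 at 1 h 8 were lower, against 19.3%, with Cish at -0.66.

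The last list held 8 genes whose products act on Il6 transcription or mRNA, namely the activators Nfkbiz, Cebpb, Cebpd and Rel, the repressor Atf3, the mRNA-destabilizing proteins Zfp36 and Zc3h12a, and Arid5a, which stabilizes Il6 mRNA. All 8 rose in WT cells at 1 h, against 23.8% of all genes, with Nfkbiz at 4.49, Zfp36 at 2.81, Rel at 2.63 and Zc3h12a at 2.55. In Map3k8[D270A] cells 5 were lower at 1 h (median -0.34), against 4.64% of all genes, with Cebpb at -1.01, Zfp36 at -0.96, Cebpd at -0.77 and Rel at -0.39. At 2 h 4 were lower and 1 higher (median -0.28), against 13.1% and 14.6% of all genes, with Cebpd at -1.65, Cebpb at -1.53 and Zc3h12a at -0.86. Both activators and mRNA-destabilizing proteins were among the lower genes. In Elk1-/-Elk4-/- cells at 2 h, where Il6 was higher, 3 were lower and 1 higher, near the 23.1% and 27.7% of all genes, with Cebpb at -1.37, Zc3h12a at -0.88 and Arid5a at 0.46. In Nfkb1[SS/AA] cells at 1 h 6 were lower and 2 higher, against 21.9% and 20.5% of all genes, with Zfp36 at -1.02, Rel at -0.63, Arid5a at 0.79 and Atf3 at 0.56. With PD0325901 at 1 h 5 were lower and 2 higher, against 19.3% and 16.4% of all genes, with Cebpb at -0.86 and Zfp36 at -0.59. With RSKi47 at 2 h 5 were lower and 2 higher, against 24.6% and 27.5%, with Cebpb at -1.20 and Cebpd at -0.61.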

How the data were processed

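RNA-seq had been run on libraries in 25 groups. Per the labels, the submitters' processing notes name STAR 2.5.1b, RSEM 1.2.29, DESeq2 1.10.1 and the mm10 build. The authors deposited 1 table of normalized values on a log2 scale. How they were transformed was not given in the sources used here, and differences may be compressed against fold changes from counts, or stand on another logarithm, so thresholds of 1 unit, 0.58 units and the natural logarithm of 2 were each tried. One value above the limit of 25 (Fosb, RSKi47 replicate 1, 1 h) was set missing. The authors give a typical sequencing yield, but the depth of each single library is unknown. Genes at a linear value of 10 or more in at least 4 libraries (62 libraries of WT, Map3k8[D270A] and Elk1-/-Elk4-/- cells, 11884 genes) or at least 3 libraries (all libraries, 11971 genes, for the other arms) entered limma 3.58.1 (R 4.3.3) with 1 mean per group and no covariates. P-values were adjusted over these genes by the Benjamini-Hochberg method, and a difference was called at an adjusted p below 0.05. The scripts were tested on simulated data.

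Members and gene lists were chosen with earlier results of these data known. From each list up to 4 called genes with the largest difference are named. Some list genes are not reported here. For each member the 5 genes with the highest correlation over group means and the nearest gene on each side are named too. Same-numbered libraries of 1 arm deviated together between times, with every correlation over 0.1 in WT (0.16 to 0.79) and Nfkb1[SS/AA] cells (0.14 to 0.67), whereas between Map3k8[D270A] and WT, which share 3 numbers, the correlations ran from -0.45 to -0.06, so numbers were not taken to pair the arms. Alternatives were a fit of the compared groups alone, other filters, a mean-variance trend, a replicate block, thresholds on the difference and leaving out each library. Both WT replicate sets alone and the threshold at the natural logarithm of 2 were chosen after seeing the data. Promoter sequences and positions are from RefSeq on GRCm38.p6. All columns of the table were mapped to samples.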

Additional observations from a re-analysis of the deposited data

Results flagged for a closer look

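Of 80 sets of 1 member in 1 group of 4 to 6 libraries, 5 held a library far from the others by Dixon's test, which flags about 1 in 20 sets by chance. Clcf1 in Elk1-/-Elk4-/- cells stood at 4.94 in replicate 4 at 0.5 h, against 4.33 to 4.40 in the other libraries, and at 7.02 in the same replicate at 1 h, against 6.55 to 6.62. Clcf1 in Map3k8[D270A] cells without LPS was at 3.68 in replicate 2, against 3.81 to 3.84. Lif with RSKi47 and no LPS was at 3.96 in replicate 4, against 3.62 to 3.68. Osm in Elk1-/-Elk4-/- cells without LPS was at 7.38 in replicate 2, against 7.16 to 7.18.

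The LPS response of a member, or its change from 1 to 2 h, differed between an arm and WT cells in 21 of 64 interaction tests (limma, adjusted p below 0.05). Over all genes, 0.0251% to 21% were called in either direction in these 16 comparisons. In Map3k8[D270A] cells the response at 1 h was smaller for Lif (-1.97) and Osm (-0.71), the response at 2 h for Lif (-1.31) and Clcf1 (-0.96), and the change from 1 to 2 h was less negative for Lif (0.66, not significant without WT replicate 6) and Osm (0.55). In Elk1-/-Elk4-/- cells the Clcf1 response was smaller at 1 h (-1.03) and 2 h (-1.78), the Lif response at 2 h (-1.26), and the drop of Lif from 1 to 2 h was greater (-1.14). In Nfkb1[SS/AA] cells the responses at 1 h of Il6 (-1.05, but -0.43 against WT replicates 7 to 9 alone), Lif (-2.18) and Clcf1 (-2.09) were smaller. With PD0325901 those of Lif (-1.83) and Clcf1 (-0.81) at 1 h were smaller. With RSKi47 the Lif response was smaller at 1 h (-1.59) and at 2 h (-0.55, not significant without WT replicate 4, 7 or 9 or RSKi47 replicate 3 or 4), and that of Clcf1 at 2 h (-1.07). The change from 1 to 2 h with RSKi47 was larger for Il6 (1.43), less negative for Lif (1.04) and negative for Clcf1 (-1.18 against WT).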

How the results depend on the processing

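Against WT replicates 7 to 9 alone, a choice made after seeing the data, Il6 at 1 h turned sign. It stood at 0.58 with PD0325901, where it was not called against all WT libraries. With RSKi47, where it was called lower, it stood at 0.17. The split was noted from values that include Il6 at 1 h, so these differences restate it and are given without a test. Further differences that were not called turned sign too, among them Osm with RSKi47 at 1 h (-0.11 without RSKi47 replicate 1). Against these WT libraries PD0325901 had 5 calls among the members in place of 3, Il6 at 1 h among them, and the cause was not tested. A threshold on the size of the difference can only remove calls. With at least 1 unit, 3 of 7 calls remained in Map3k8[D270A], 2 of 6 in Elk1-/-Elk4-/-, 2 of 7 in Nfkb1[SS/AA], 1 of 3 in PD0325901 and 3 of 7 in RSKi47-treated cells. With at least 0.58 units 4 calls remained in Map3k8[D270A] and 4 in Nfkb1[SS/AA] cells, and with the natural logarithm of 2 as the threshold 4 and 3. Fits of the compared groups alone, no filter, quantile normalization, median centring, a mean-variance trend, averaged PD0325901 libraries and time-matched references without LPS left each arm's count within 1.5 times and turned no sign of a called difference.

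With the replicate number as a block, Map3k8[D270A] cells had 11 calls of 16 in place of 7, adding Il6 at 1 h (-0.72) and 2 h (-0.72), Clcf1 at 1 h (-0.56) and Osm without LPS (-0.19). That fit rests on the 3 shared numbers, which were not found to pair the arms. The block also removed the call of Lif in Nfkb1[SS/AA] cells at 0.5 h (-0.39, adjusted p = 0.0715) and added Osm with PD0325901 at 1 h (-0.22, adjusted p = 0.00115). The numbers were not found to pair these arms with WT either. Over all comparisons of members fitted with a block, 13 calls were added and 1 was removed, and not all of the 13 are named here. With the depth of each library unknown, small differences near the floor of the scale cannot be graded by counting error.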
